A study of Mus musculus with 46 samples.

Results

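The 8 genes described here encode calcium/calmodulin-dependent protein kinases and their nearest relatives: Camk2a, Camk2b, Camk2d, Camk2g, Camk4, Camkk1, Camkk2 and Camkv. They were taken by name, with earlier results of these data known, from the 22800 genes of the count table by gene symbol. All 8 were found, and all 8 passed the filter on low values, a mean log2(CPM + 1) of at least 0.5 over all cells (CPM is a gene's reads scaled to a total of 1000000 per cell). The cells were 46 single neurons labelled as OLM cells, interneurons of the hippocampal stratum oriens whose axons reach the stratum lacunosum-moleculare. Of these, 23 came from an Htr3a Cre driver line and 23 from an Sst Cre driver line, in which Cre is made under the control of the serotonin 3a receptor gene or the somatostatin gene. The mice were 21 to 30 days old, the cytosol of each cell was drawn into a patch pipette, and every cell carried the label of having passed quality control. The labels name no treatment and no animal, so each line counts as 1 sample. The values below therefore describe 2 lines without a test between them, and an SD is the spread between cells.

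Calmodulin that has bound calcium switches these kinases on. The CaMKII subunits, made from the Camk2 genes, assemble into large rings that phosphorylate one another and so stay active after calcium has dropped. Camkk1 and Camkk2 encode the upstream kinases that phosphorylate and activate the CaMKIV protein of Camk4, a nuclear kinase of the transcription factor CREB, as well as CaMKI. Camkv encodes a calmodulin-binding relative without kinase activity. In the forebrain, Camk2a is known as a gene of excitatory pyramidal neurons, and its promoter is widely used to direct transgenes to them, whereas OLM cells are GABAergic.

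The Camk2 genes are close paralogues, so whether their reads can be told apart comes first. The longest stretch of bases that Camk2b, Camk2d and Camk2g share in their coding sequences was 22 bases. It is shown here within 72 bases of each gene's longest coding sequence, 5′ to 3′ on the coding strand, from the GENCODE M21 transcripts of GRCm38. Capitals mark the 18 positions at which the 3 genes are not all the same.
Camk2b: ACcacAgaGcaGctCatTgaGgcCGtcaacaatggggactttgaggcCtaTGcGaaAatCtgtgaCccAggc
Camk2d: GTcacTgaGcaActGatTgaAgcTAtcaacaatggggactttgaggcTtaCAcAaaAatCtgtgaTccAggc
Camk2g: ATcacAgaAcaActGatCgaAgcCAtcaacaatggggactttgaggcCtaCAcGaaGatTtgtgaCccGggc
The windows cover coding bases 1621 to 1692 of Camk2b, 1159 to 1230 of Camk2d and 1318 to 1389 of Camk2g. Between pairs, the longest identical coding run was 29 bases for Camk2b with Camk2g and 23 bases for Camk2b with Camk2d and for Camk2d with Camk2g. With Camk2a it was 32 bases for Camk2b, 29 for Camk2g and 23 for Camk2d. Outside the shared run the differences lie only a few bases apart. Over all exons, 0.107% of the 31-base words of Camk2a, 0.0654% of those of Camk2b and 0 of those of Camk2g occurred in another Camk2 gene. Words shared with any other gene made up between 0% and 1.29% for the 8 genes. The 1.29% belongs to Camk4, one of whose exons overlaps an exon of 2310026I22Rik on the opposite strand. Reads of that stretch cannot be assigned to either gene, because strand use was not given in the sources used here.

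On GRCm38, Camk2a (ENSMUSG00000024617) lies at chr18:60925618-60988152 on the plus strand and Camk4 (ENSMUSG00000038128) at chr18:32934931-33191228, also on the plus strand. Camk2b (ENSMUSG00000057897) is at chr11:5969644-6066362 on the minus strand, and Camkk1 (ENSMUSG00000020785) is on the same chromosome at chr11:73019008-73042073 on the plus strand. Camk2d (ENSMUSG00000053819) lies at chr3:126596302-126846326, plus strand. Camk2g (ENSMUSG00000021820) lies at chr14:20734875-20794088, minus strand. Camkk2 (ENSMUSG00000029471) is at chr5:122731170-122779409 on the minus strand and Camkv (ENSMUSG00000032936) at chr9:107935674-107949691 on the plus strand. All 8 are annotated as protein-coding, and a count is the sum over the whole gene, so splice forms of a gene cannot be read from it.

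The Htr3a-line cells held 3391829 to 26136222 reads with a median of 15336981, and the Sst-line cells 5639490 to 31386369 with a median of 16726879. Genes read per cell went the other way, with medians of 8169 in the Htr3a line and 6569 in the Sst line. Somatostatin (Sst), Gad1 and Gad2, genes that mark a somatostatin interneuron and the synthesis of GABA, were read in 46 of 46 cells. Gad1 lay at 10 CPM or more in 44 cells. The exceptions were Htr3a-line cell 4, with 4 Gad1 reads (0.446 CPM), and Htr3a-line cell 20, with 24 (7.08 CPM). Cell numbers only name cells, in the order of deposit.

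Camk2b, the beta subunit gene, had the highest summed level in CPM of the 8 members in each line. In the Htr3a line it had reads in 22 of 23 cells, with 0 CPM as the lowest value, 114 as the median and 546 as the highest. In the Sst line it had reads in 19 of 23 cells, with a lowest value of 0, a median of 113 and a highest value of 789 CPM. The 2 lines overlapped over nearly their whole range, and reads summed over a line gave 174 CPM in the Htr3a line (exact Poisson 95% interval 172 to 175) and 176 in the Sst line (174 to 177). The lines differed most in the cells with little Camk2b, although the intervals of the shares overlapped. It reached 10 CPM in 21 Htr3a-line cells (91.3%, exact binomial 95% interval 72.0 to 98.9) but in 14 Sst-line cells (60.9%, 38.5 to 80.3). The binomial intervals treat the cells of a line as independent draws and do not cover the spread between animals. The Poisson intervals cover counting error only. They are too narrow even for that if copies of the same molecule were counted more than once.

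Camk2a, the alpha subunit gene, had reads in most cells and was below 10 CPM in more than it was above. In the Htr3a line 14 cells had a read, and the lowest, median and highest values were 0, 0.688 and 82.5 CPM. In the Sst line 17 cells had a read, and the values were 0, 3.30 and 127 CPM. Camk2a was at 10 CPM or more in 4 cells of the Htr3a line (17.4%, 4.95 to 38.8) and 9 of the Sst line (39.1%, 19.7 to 61.5), so that the ranges of the lines and the intervals of their shares overlapped. Summed over a line it stood at 9.26 CPM in the Htr3a line and 28.4 in the Sst line. Htr3a-line cell 1 alone gave 43.8% of the Camk2a reads of its line, and without it the Htr3a line stood at 5.48 CPM. The highest cell of the Sst line, cell 16, gave 24.0% of the reads there.

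Camk2d, the delta subunit gene, ranged widely between the cells of each line. It had reads in 19 cells of the Htr3a line, where the median was 33.6 CPM and the highest value 349. It had reads in 17 cells of the Sst line, where the median was 3.57 CPM and the highest value 249, and the lowest value was 0 in both lines. In the 24 cells at or above 10 CPM (13 of the Htr3a line and 11 of the Sst line) the median was 121 CPM in the Htr3a line and 116 in the Sst line. Among the cells at that level the medians were thus alike, and the number of such cells differed little between the lines. Camk2g, the gamma subunit gene, was read in 21 cells of the Htr3a line and 22 of the Sst line. Its lowest, median and highest values were 0, 29.0 and 191 CPM in the Htr3a line and 0, 26.7 and 188 CPM in the Sst line, which overlapped throughout.

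The genes of the cascade above CREB were read in fewer cells. Camk4 was read in 10 Htr3a-line cells and 11 Sst-line cells, with a median of 0 CPM in both lines and highest values of 464 and 249 CPM. It reached 10 CPM in 6 and 9 cells, and the summed levels were 22.1 CPM in the Htr3a line and 51.9 in the Sst line. The value of 464 CPM belongs to Htr3a-line cell 20, which was low in Gad1 and had no Camk2b read.

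Camkk1 was read in 12 cells of the Htr3a line, with a median of 4.21 and a highest value of 164 CPM, and in 8 of the Sst line, with a median of 0 and a highest value of 228 CPM. Its summed level was 36.3 CPM in the Htr3a line and 43.4 in the Sst line, but 26.3 in the Sst line without Sst-line cell 12. Camkk2, whose kinase also phosphorylates AMPK, was read in 14 cells of the Htr3a line, with a median of 2.83 and a highest value of 107 CPM, and in 9 of the Sst line, with a median of 0 and a highest value of 135 CPM. For both genes the lines overlapped, with cells at 0 in each. Of the 15 cells with Camk4 at 10 CPM or more, 5 had Camkk1 at that level, 6 had Camkk2, 0 had both and 4 had neither. Over all 46 cells, Camkk1 reached it in 16 and Camkk2 in 18. Camkk1 and Camkk2 were both at 10 CPM or more in 6 of 46 cells. At the amounts of RNA in 1 cell a gene can be missed, so a 0 is a gene not read, not a gene shown to be off, and no library of a cell type that should lack these genes was there to set a background.

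Camkv, the relative without kinase activity, was read more widely than the cascade genes. It had reads in 19 cells of the Htr3a line, with a median of 61.6 and a highest value of 335 CPM. It had reads in 16 cells of the Sst line, with a median of 14.03 and a highest value of 320 CPM. Its highest cell, Htr3a-line cell 4, was the one with 4 Gad1 reads. That library had 4337 genes read. It held 13314 CPM of oligodendrocyte genes and 1383 CPM of astrocyte genes, the highest sums of any cell. Camkv reached 10 CPM in 16 Htr3a-line cells (69.6%) and 13 Sst-line cells (56.5%), and the ranges of the lines overlapped.

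**Figure D1:**
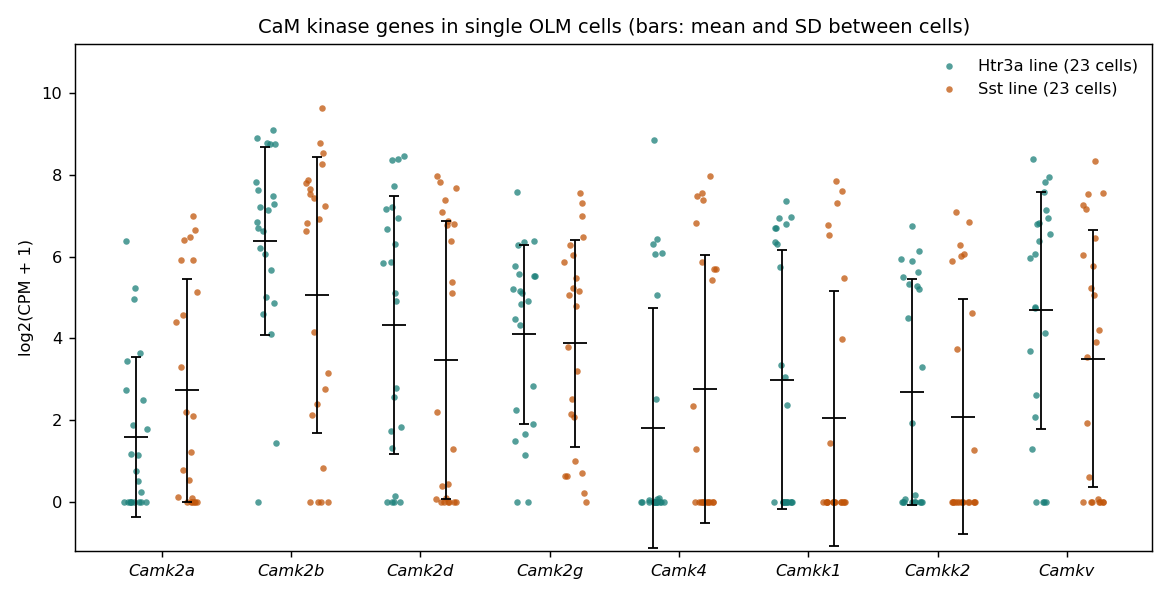
Level of each CaM kinase gene in each cell, as log2(CPM + 1), with Htr3a-line cells in green and Sst-line cells in orange, and with bars for the mean and SD between the 23 cells of a line. Every gene has cells at or near 0 in both lines and the lines overlap for all 8 genes; for Camk2b the means are 6.39 and 5.06, and for Camk2a 1.58 and 2.73.

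Levels of different genes were compared per kilobase (kb) of annotated exon. Over all cells, summed levels per kb ran in the order Camk2b (19.1 CPM per kb), Camkv (16.5), Camk4 (11.5), Camkk1 (10.7), Camk2g (5.91), Camk2d (3.34), Camk2a (2.56) and Camkk2 (2.23). In the Htr3a line alone Camkv was first, at 19.57 CPM per kb beside 19.03 for Camk2b. Several neighbours in that order could not be set apart from cell to cell. Camk2b was above Camkv in 22 cells and below it in 20, Camk4 was above Camkk1 in 14 and below it in 16, and Camk2a was above Camkk2 in 19 and below it in 18. Others were more one-sided: Camk2b was above Camk2d in 37 cells, above Camk2a in 38 and above Camkk2 in 41. One pair of neighbours went against the summed order: Camk2g was above Camkk1 in 30 cells and below it in 13. The place of Camk4 rests on few cells, since per kb Camkv was above it in 27 cells and below it in 14.

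The middle of the order depends on the length used. The exons of Camk2d together cover 22.5 kb, whereas its longest transcript has 5.52 kb. Divided by the longest transcript, Camk2d moved up to 13.6 CPM per kb, close to Camk4 at 13.8, and Camk2b (42.4) and Camkv (18.9) kept the first places.

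The mix of the Camk2 genes within a cell was taken as each gene's percent of the cell's Camk2 reads per kb of exon. Every cell had Camk2 reads, from 186 to 14916. Camk2b led in 31 of 46 cells, Camk2g in 10, Camk2a in 3 and Camk2d in 2. In the Htr3a line the median share was 59.0% for Camk2b, 19.8% for Camk2g, 10.7% for Camk2d and 0.257% for Camk2a. In the Sst line it was 51.6% for Camk2b, 14.3% for Camk2g, 0.303% for Camk2d and 1.75% for Camk2a. Within each line the lowest share was 0% for each of the 4 genes and the highest 69.7% or more, so the spread between cells of a line was far wider than the gap between the medians of the lines.

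Most libraries leaned on 1 gene of the 4. The leading gene held a median of 71.3% of the Camk2 reads per kb, from 34.0% to 100%, and over 90% in 12 cells, 5 of the Htr3a line and 7 of the Sst line. The number of Camk2 genes at 10 CPM or more was 1 in 14 cells, 2 in 14, 3 in 14 and 4 in 4. Camk2b stood alone in Htr3a-line cell 6 and Sst-line cell 4, with 100% of the mix in each. Among the cells over 90% were sparse libraries. Htr3a-line cells 6, 20, 4 and 21 had 3350, 4064, 4337 and 5033 genes read, beside a line median of 8169. Sst-line cells 17, 16, 3, 4 and 14 had 3225, 4225, 5396, 6196 and 6507, beside 6569. Htr3a-line cell 23 (8169) and Sst-line cells 7 (7044) and 1 (7514) were not below their line's median. Whether missed genes set these shares was not tested.

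Camk2b was under 10 CPM in 11 cells, 2 of the Htr3a line and 9 of the Sst line. Camk2g led in 8 of these, Camk2a in 2 and Camk2d in 1. With no Camk2b read at all, Htr3a-line cell 20 had 99.2% Camk2g, Sst-line cell 19 had 64.0% Camk2g, and Sst-line cell 10 had 49.8% Camk2g beside 48.5% Camk2d. These leads depend on the length used. With the longest transcript, all Sst-line cells led by Camk2g fell from 6 to 3, and those led by Camk2d rose from 1 to 6. Sst-line cells 10 and 19 were among those that turned to Camk2d. Sst-line cell 22 had 78.7% Camk2d. Sst-line cell 16 had 95.8% Camk2a, the highest share of that gene. The other cells led by Camk2a were Sst-line cell 15 at 87.1% and Htr3a-line cell 1 at 73.8%.

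**Figure D2:**
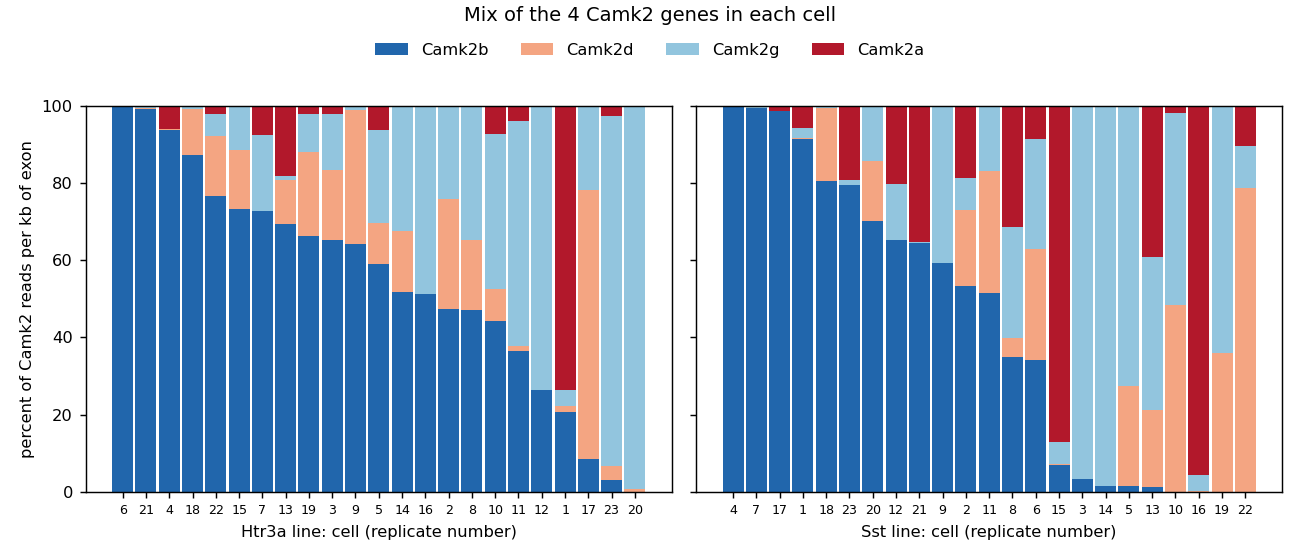
Percent of the reads per kb of exon of Camk2b, Camk2d, Camk2g and Camk2a in each cell, as stacked bars, with cells of each line ordered by their Camk2b share. Camk2b leads in 17 Htr3a-line and 14 Sst-line cells, and the cells at the right of each panel, where it is small or 0, are mostly led by Camk2g or, in 3 cells, by Camk2a. Divided by the longest transcript instead, some of the Sst-line cells led by Camk2g are led by Camk2d.

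The count of cells led by Camk2b moved little with length: it was 28 with the longest transcript and 27 with no length. Camk2d led in 8 and 10 cells in those settings in place of 2, so how often Camk2d leads cannot be given without knowing which transcripts the cells make. Over all cells, summed reads gave 61.9% Camk2b, 19.1% Camk2g, 10.8% Camk2d and 8.28% Camk2a.

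The members showed little order among themselves. Over the 28 pairs of members, the Spearman correlation of log2(CPM + 1) over the 46 cells ran from -0.26 to 0.27 with a median of 0.02. The cells share a library chemistry and differ in depth, and at these sizes no pair stands out. Between 1 and 6 of the 8 members were at 10 CPM or more in a cell, with 28 cells holding 4 or more.

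The difference between the lines was taken as the mean log2(CPM + 1) of the Sst line minus that of the Htr3a line, which weighs each cell equally, and beside it as the log2 ratio of the summed levels (with 1 CPM added to each). Camk2a was 1.15 higher in the Sst line (1.58 ± 1.96 in the Htr3a line and 2.73 ± 2.73 in the Sst line, SD, n = 23 cells each), and its summed levels gave 1.52. Camk4 differed by 0.96 (1.81 ± 2.94 and 2.76 ± 3.29) and by 1.19 in summed levels. These were the only members with a mean above the Htr3a line's, and both differences were smaller than the SD between cells.

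The other 6 means were lower in the Sst line, by -1.33 for Camk2b, -1.18 for Camkv, -0.94 for Camkk1, -0.85 for Camk2d, -0.60 for Camkk2 and -0.22 for Camk2g. The summed levels did not follow in each case. For Camk2b the ratio was 0.02 and the difference of the medians over cells was -0.02, and its lower mean went with 9 Sst-line cells under 10 CPM beside 2 of the Htr3a line. The ratio was lower in the Sst line for Camkv (-0.52) and Camk2d (-0.59), and slightly higher for Camk2g (0.26), Camkk1 (0.25) and Camkk2 (0.20). Single cells set the sign of 2 of these: Camkk1 came to -0.45 without Sst-line cell 12, and Camkk2 to -0.25 without Sst-line cell 1 and -0.04 without Sst-line cell 4.

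A difference of at least 1 in size was used as the mark of a large one. Camk2a was past it upward, where 4.24% of all 11196 genes above the filter were, and Camk2b and Camkv downward, where 14.9% were; either way, 3 of 8 members stood beside 19.2% of all genes. The median over the members was -0.73, beside -0.22 over all genes, of which 62.6% were lower in the Sst line. In summed levels, Camk2a and Camk4 were higher by at least 1, as were 9.83% of all genes, and no member was lower by that much, as 10.7% were. The ratio of Camk4 dropped under 1, to 0.85 and 0.89, without Sst-line cell 1 or Sst-line cell 3. In the difference of means, Camk2a dropped just under 1 without Sst-line cell 8, 13, 16 or 21, to between 0.96 and 0.98. By that measure Camk4 came past 1 when any one of 19 cells was left out. In means, too, Camk2d passed -1 without any one of 13 cells and Camkk1 without any one of 18, so both stood at the edge.

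**Figure D3:**
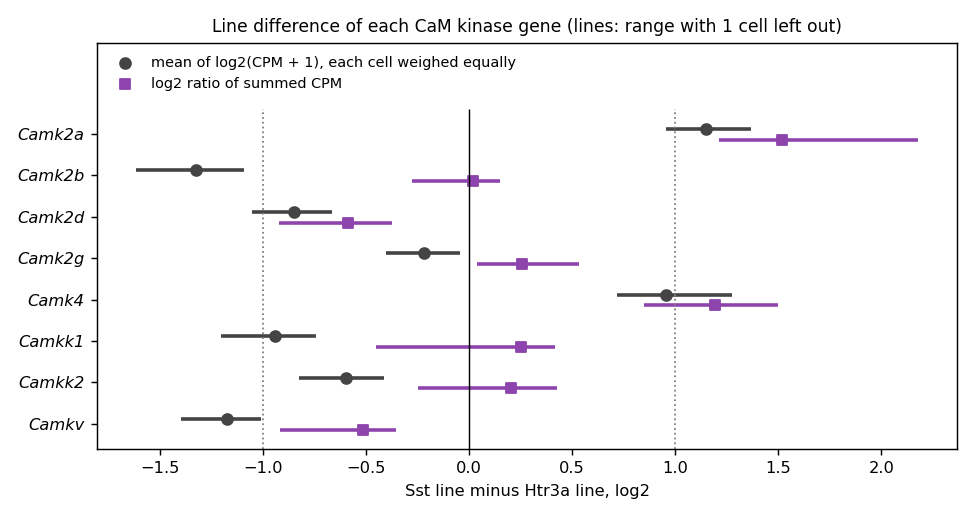
Line difference of each gene, Sst line minus Htr3a line, as the mean of log2(CPM + 1) over cells (circles) and as the log2 ratio of summed CPM (squares), with horizontal lines for the range when 1 cell is left out and dotted lines at -1 and 1. Camk2a and Camk4 lie to the right by both measures, Camkv and Camk2d to the left by both, and Camk2b lies at -1.33 by the first and 0.02 by the second.

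Other values moved with the lines. Fewer genes were read per cell in the Sst line, as given above, beside 6 lower member means. The microglial genes (9 of 9 read, 8 with a higher mean in the Sst line) summed to 0 to 8443 CPM with a median of 448 in the Htr3a line and to 0.0536 to 10876 with a median of 774 in the Sst line. Oligodendrocyte genes (6 of 7 read) had medians of 114 and 196 CPM, within 0.144 to 13314 and 0.473 to 5318. Astrocyte genes (8 of 8 read) had medians of 62.6 and 55.8 CPM, within 0.360 to 1383 and 0.0596 to 445. Their part in the member differences was not tested. Over the 46 cells Camk2a had a Spearman correlation of -0.01 with the microglial sum, 0.23 with the oligodendrocyte sum and 0.22 with the astrocyte sum. Within the Htr3a and Sst lines these were 0.14 and -0.18, 0.17 and 0.22, and 0.46 and 0.08. With the same sums, in the same order, Camk2b had -0.22, -0.17 and -0.36, and Camkv -0.14, 0.24 and 0.32. For the astrocyte sum, the Htr3a and Sst lines gave -0.51 and -0.29 for Camk2b, and 0.60 and 0.03 for Camkv.

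Whether Camk2a reads went with genes of pyramidal cells was read cell by cell. Slc17a7, the vesicular glutamate transporter gene VGLUT1 that defines most cortical and hippocampal pyramidal cells, was read in 2 cells, both of the Htr3a line, and in no Sst-line cell. Htr3a-line cell 6 held 1117 Slc17a7 reads (67.1 CPM) and no Camk2a read. Htr3a-line cell 10 held 4 Slc17a7 reads (0.215 CPM) and 184 Camk2a reads (9.89 CPM). Thus 1 of 46 cells had reads of both genes, and the cell with nearly all Slc17a7 reads had none of Camk2a. That cell, cell 6, was a sparse library, with 3350 genes read, the fewest of its line (median 8169). Of the 8 members only Camk2b was read in it, so its missing Camk2a read says little about the 2 genes.

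Camk2a was at 10 CPM or more in 13 cells, 4 of the Htr3a line and 9 of the Sst line. No Slc17a7 read was found in these 13, which allows cells with a read a share of up to 23.1% (3 cells of 13) and sets no limit on cells that express the gene. Gad1 ran from 511 to 1604 CPM in them with a median of 1063, and Sst from 1274 to 26642 CPM with a median of 9726. Reads of both were present in every cell of the series, and Gad1 was at 10 CPM or more in 13 of 13 of these cells and in 31 of the other 33. The cells highest in Camk2a were Sst-line cell 16 (127 CPM), Sst-line cell 21 (99.1), Sst-line cell 13 (88.4) and Sst-line cell 8 (83.5), followed by Htr3a-line cell 1 (82.5). Of these, cells 21 and 13 held no read of the 14 pyramidal-cell genes other than Mpped1, and in cell 8 and Htr3a-line cell 1 these genes summed to 0.643 and 0.177 CPM. Cell 16 held 143 CPM of Tbr1, a transcription factor of excitatory neurons, and no read of the other 13.

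Of the 15 pyramidal-cell genes listed, Spink8 had no read in any cell. Slc17a7, Slc17a6, Emx1, Pou3f1 and Itpka were also at 0 in every Sst-line cell, the line with the higher Camk2a. Mpped1 was read in 44 of 46 cells, at 10 CPM or more in 40, so it does not set pyramidal cells apart here and was left out of the counts that follow, a choice made after its values were seen. With it, the list summed to 1.34 to 646 CPM with a median of 315 in the Htr3a line and 0.173 to 382 with a median of 168 in the Sst line.

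Among the 13 cells with Camk2a at 10 CPM or more, 3 held one of these 14 genes at 10 CPM or more: Tbr1 in Sst-line cell 16, Fibcd1 in Sst-line cell 12, and Fibcd1 with Pou3f1 in Htr3a-line cell 19. Among the other 33 cells, 18 did. That gap depends on the level asked of Camk2a: at 5 CPM it was 6 of 16 cells beside 15 of 30, and with any read 14 of 31 beside 7 of 15, both levels chosen after the values were seen. Fibcd1, a CA1 pyramidal-cell marker, made up most of these cells: it was read in 16 and at 10 CPM or more in 13. Camk2a reads were thus not seen to go with these genes at any of the 3 levels.

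A single library held most of the pyramidal-cell genes. Htr3a-line cell 10, which lay just under 10 CPM of Camk2a, had 8 of them at 10 CPM or more. It had the most genes read of any cell (12693). The 5 GABAergic genes listed, Gad1 and Gad2 among them, summed to 307 CPM in it, the lowest of any cell, beside a line median of 4016. Gad1 stood at 121 CPM and Gad2 at 107. Neurod6 (92.4 CPM), Slc17a6 (51.97) and Neurod2 (49.3), genes of glutamatergic neurons and their differentiation, were each highest there, and Emx1 (0.484) was read there alone. In this cell Camk2a was above the median of its line, but 4 cells of the line were higher, and these held no read of Slc17a7, Slc17a6 or Neurod6. Other genes were highest elsewhere. Nrgn, a calmodulin-binding postsynaptic protein read in 25 cells, reached 59.3 CPM in Htr3a-line cell 20, and Wfs1 68.0 CPM in Htr3a-line cell 9. Pou3f1 reached 108 CPM in Htr3a-line cell 6 and Itpka 24.0 CPM in Htr3a-line cell 17. All 4 cells were without a Camk2a read, but cells 6 and 20 had only 3350 and 4064 genes read. Neurod1 reached 5.86 CPM in Sst-line cell 22.

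**Figure D4:**
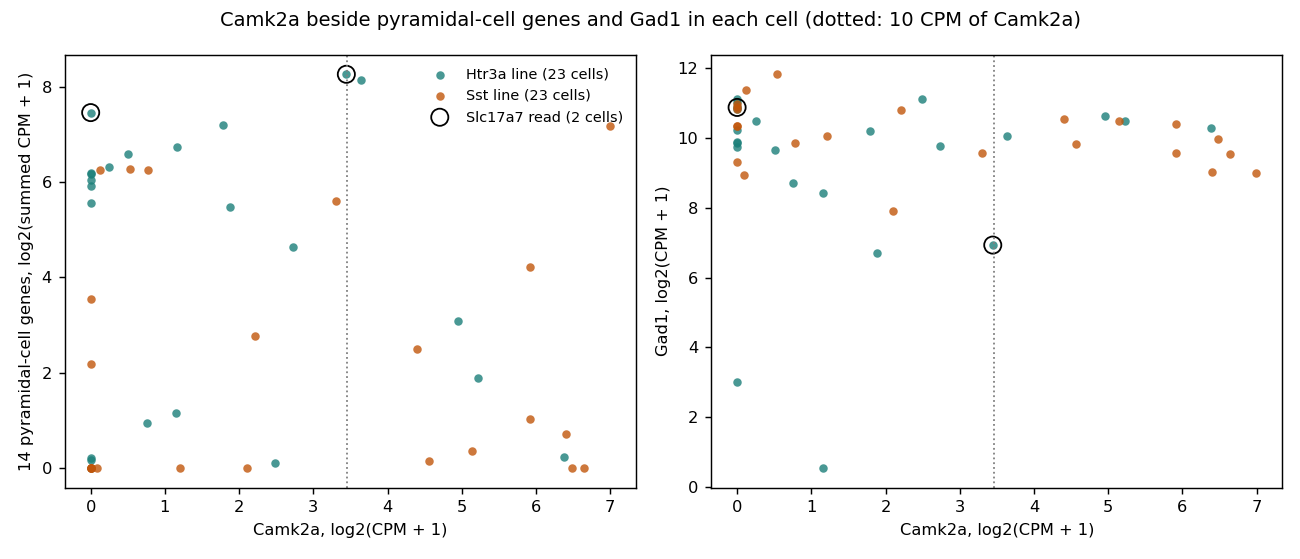
Camk2a in each cell on the x axis, as log2(CPM + 1), against the summed level of the 14 pyramidal-cell genes other than Mpped1 (left) and against Gad1 (right), both as log2 of 1 plus CPM, with rings around the 2 cells with a Slc17a7 read. The 13 cells right of the dotted line at 10 CPM of Camk2a lie mostly low in the left panel. Their median there is 1.06 CPM and their highest value 280, beside 23.8 and 306 in the other 33 cells. In the right panel all 13 lie at 511 CPM of Gad1 or more.

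The correlations were weak. Over 46 cells, Camk2a had a Spearman correlation of -0.23 with the summed list, -0.12 within the Htr3a line and -0.16 within the Sst line. Without Mpped1 it was -0.00057. Camk2b and Camk2d had values of 0.36 and 0.38 with the whole list, which became 0.04 and -0.19 without Mpped1, and Camk2g had -0.04 and 0.07. The points share the cells' depth and number of genes read, with which Camk2a had correlations of 0.13 and 0.17. With genes read it was 0.52 within the Htr3a line and -0.06 within the Sst line.

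Around the kinases, calmodulin itself was abundant in every cell. Calm2 and Calm3, which encode one and the same protein, were each read in 46 of 46 cells. Their summed levels in the Htr3a and Sst lines were 3506 and 4003 CPM for Calm2, and 375 and 403 CPM for Calm3. Reads of near-identical genes could be split among them: other genes, all with predicted names, hold 18.1% of the 31-base words of Calm2 and 4.99% of those of Calm3. Neither gene differed by 1 or more in mean between the lines.

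Of 8 other calmodulin-regulated kinases, 1 was lower by at least 1 and none higher, beside 14.9% and 4.24% of all genes. That was Camk1d, a CaMKI gene downstream of the Camkk kinases, with a difference of -1.38 and summed levels of 49.0 CPM in the Htr3a line and 16.1 in the Sst line. Its relative Camk1 was read in 22 cells of each line, at 242 and 297 CPM with a difference of 0.82 (0.51 to 1.17 with 1 cell left out). Cask, a membrane scaffold with a CaMK-like domain, differed by -0.44 and stood at 45.1 and 18.9 CPM. In summed levels, where 10.7% of all genes were lower and 9.83% higher by at least 1, 2 of the 8 were lower by at least 1, Camk1d and Cask, and 1 higher, Eef2k, a kinase of a translation elongation factor, named after its values were seen, at 3.74 and 13.03 CPM. The log2 ratio of Cask came from -1.21 to -0.90 without Htr3a-line cell 18, and that of Eef2k from 1.57 to 0.81 without Sst-line cell 9. The median difference over these 8 was -0.14.

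Of 9 inhibitors, phosphatases and calmodulin buffers, 2 were lower by at least 1 and none higher, again beside 14.9% and 4.24% of all genes, with a median of -0.26. In summed levels Pcp4 alone of the 9 was past 1. Camk2n1, an inhibitor protein of CaMKII, differed by -1.21, with summed levels of 53.6 CPM in the Htr3a line and 37.6 in the Sst line. Ppm1f, a phosphatase that removes CaMKII phosphorylation, differed by -1.10 in mean, but its summed level was 35.7 CPM in the Htr3a line and 43.8 in the Sst line, a direction that turned without Sst-line cell 19. Pcp4, a small calmodulin-binding protein, differed by -0.95 and stood at 41.4 and 7.64 CPM. Htr3a-line cell 10 alone gave 67.0% of the Pcp4 reads of its line, which stood at 14.4 CPM without it, and the log2 ratio of summed levels went from -2.29 to -0.84. All 3 lay near the mark: with 1 cell left out, the difference ran from -1.42 to -0.97 for Camk2n1, from -1.39 to -0.84 for Ppm1f and from -1.18 to -0.62 for Pcp4.

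Of 16 substrates and targets of the kinases, 15 passed the filter and none of them differed by 1 or more, beside 19.2% of all genes, with a median of -0.01. In summed levels 1 was higher by at least 1: Prkaa1, an AMPK subunit gene named after its values were seen, at 45.2 and 119 CPM, but with a log2 ratio that came from 1.38 to 0.40 without Sst-line cell 17. Hdac4, a histone deacetylase kept out of the nucleus by CaMK phosphorylation, differed by 0.77 (0.54 to 1.03 with 1 cell left out), at 65.0 CPM in the Htr3a line and 127 in the Sst line. Crtc1, a CREB coactivator, differed by -0.54 at 24.2 and 15.8 CPM. Creb1 itself differed by -0.44 at 23.9 and 20.8 CPM, and this last order turned without Htr3a-line cell 3 or Htr3a-line cell 8.

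Genes with patterns most like those of the Camk2 genes were looked for among 6668 genes read in at least 23 cells, by Spearman correlation over the 46 cells. For Camk2a they were Hook1 (0.64), Taz (0.58) and Dcaf17 (0.51). For Camk2b they were Smim13 (0.54), Mturn (0.54) and Top2b (0.53), and for Camk2d Lancl2 (0.62), Hipk1 (0.58) and U2surp (0.57). For Camk2g they were Pomk (0.61), Dnajc19 (0.58) and Acat2 (0.58). With so many genes compared over cells that share depth and chemistry, values of this size are a description of these libraries.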

How the data were processed

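The data are single-cell RNA-seq libraries of 46 cells. Raw read counts per gene were deposited by symbol (22800 genes) and by Ensembl identifier (22880), and a table of normalized values was deposited on a linear scale, here called a signal. Dividing the counts of each cell by 1 number returned its non-zero values to within 0.1%, for 100% of them. Per the submitters' processing notes, the tools were Trimmomatic, STAR and featureCounts and the build GRCm38. Versions, annotation and strand were not given in the sources used here. The labels mention no molecular identifiers.

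The 8 genes, the gene lists and the rules were chosen with earlier results of these data known. Of the symbols, 21906 matched GENCODE M21. The counts of the 8 genes were the same in both count tables. Of 1035 pairs of libraries, 0 were identical. Counts were scaled to CPM and expressed as log2(CPM + 1) with Python 3.11.15, numpy 2.4.6, pandas 2.3.3 and scipy 1.17.1. Lengths are unions of exons. Each line is 1 sample, so no test was made. Genes other than the 8 are named as follows: calmodulin genes, pyramidal-cell genes with a read, up to 3 genes of each other pathway list with the largest line difference and reads in at least 12 cells, and the 3 genes most like each Camk2 gene, without predicted names. Some genes that this rule or the marker lists cover are not reported here. Alternatives were TMMwsp size factors (edgeR 4.0.16, R 4.3.3), poscounts size factors (DESeq2 1.42.0), the deposited values, another pseudocount, filter, length and table, thinning to 5000000 reads, and leaving out cells. The scripts were tested on simulated data.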

Additional observations from a re-analysis of the deposited data

How the results depend on the processing

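The 8 line differences kept their sign in all 8 settings of scaling, table, depth, pseudocount and cells left out. Camk2a ranged from 0.65 to 1.25 and Camk2b from -1.71 to -0.72. Every move was smaller than the SD between cells, but so was each difference itself, so this is a weak limit. The table by Ensembl identifier held the same counts of the 8 genes and could hardly move them. The median of all genes moved from -0.22 to between -0.36 and -0.06. Members at least 1 higher in the Sst line, 1 as reported, came to 2 after thinning to 5000000 reads, 2 without Htr3a-line cells 4 and 20, 2 without the cells with a Slc17a7 read, 0 with a pseudocount of 10, and 0 to 2 with 1 cell left out. Members at least 1 lower, 2 as reported, came to 3 with TMMwsp size factors and 3 without Htr3a-line cells 4 and 20. They came to 4 without the cells with a Slc17a7 read, 0 with a pseudocount of 10, and 2 to 4 with 1 cell left out. A pseudocount of 10 shrinks every difference by its construction; the cause of the other moves was not tested. At 10 CPM in place of 1 read, shares of cells in the Htr3a and Sst lines were 17.4% and 39.1% for Camk2a, 56.5% and 47.8% for Camk2d, 65.2% and 56.5% for Camk2g, and 60.9% for Camk2b in the Sst line. After thinning, which left out 1 Htr3a-line cell, Camk2b was read in 100% of Htr3a-line cells. Camk2d led the mix in 8 cells with the longest transcript and 10 with no length, and Camk2g in 6 with no length. Cells with reads of both Camk2a and Slc17a7, 1 as reported, were 0 at 5 reads and 0 at 10 CPM. The correlation of Camk2a with the pyramidal-cell list ran from -0.29 to -0.19 with 1 cell left out. The levels of Camk2a asked in the pyramidal-cell counts, and leaving out Mpped1, were chosen after seeing the data. No paired analysis was possible because the cell numbers only name cells in the order of deposit and no result comes from a test. Depth limits what a 0 means in any cell.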
